A study of Mus musculus with 4 samples.

Results

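EGF-family growth factors and the ErbB receptors that bind them were examined in 2 structures cut by laser from sections of the mouse kidney before birth. The set was chosen by name and held 10 genes, the ligands Egf, Tgfa, Hbegf, Areg, Ereg and Btc and the receptors Egfr, Erbb2, Erbb3 and Erbb4. Every probe set whose platform symbol was one of these names was taken, which gave 20 probe sets for 9 genes, of 34945 probe sets and 18193 genes with 1 symbol. No probe set carried the symbol Areg, which was not analysed here. Of the 9 measured genes, 7 were bright enough to be tested, among 12642 tested genes, while Ereg and Erbb4 were not.

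The study set out to record which genes are active in separate elements of the developing kidney. For the cortical collecting duct, the branched epithelium near the kidney surface that carries urine away and descends from the ureteric bud, there was 1 array. For the loop of Henle anlage, precursor of the nephron segment that later builds the salt gradient for concentrating urine, there were 3. All samples were wild-type CD-1 mice, an outbred stock, at stage E15.5 (days of embryonic life, Theiler stage 23), with sex given as unknown. Each array was hybridised with RNA from a pool of about 50 sections from 5 kidneys, amplified over 2 rounds. The p-values rest on the spread between the 3 anlage pools, which may be partly technical. The labels do not say whether pools shared kidneys or litters. If anlage pools shared animals, the p-values are too small, and sharing between the 2 structures was not modelled. In bulk samples of this kind, fewer cells of a type and less RNA per cell cannot be told apart.

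EGF-family ligands are made as membrane proteins and are released by metalloproteases of the ADAM family. Egf, Tgfa and Areg bind EGFR, while Btc, Hbegf and Ereg bind both EGFR and ERBB4. ERBB2 has no known ligand of its own and acts as a partner of the others, and ERBB3 binds neuregulins but has little kinase activity, so it signals through its partners. In the adult mouse kidney the distal nephron, the thick ascending limb included, is a main source of EGF.

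Marker lists were read beside the labels. They were chosen with earlier results of these data known, so they describe the arrays and are no independent check of the capture. All 13 collecting duct markers read higher in the collecting duct than the anlage mean, 11 of them above every anlage array, while all 12 loop of Henle markers lay below every anlage array. Of all tested genes, 17.3% lay above every anlage array and 24.3% below. The collecting duct list averaged a log2 value of 12.65 there, against 9.83, 10.92 and 9.83 in anlage arrays 1, 2 and 3. The loop list averaged 8.74 in the collecting duct, against 12.58, 11.22 and 12.40. Markers of other cells gave signal too: the stromal list averaged 12.80 in the collecting duct array, against 12.40, 12.58 and 14.47. The endothelial list averaged 8.72 in the collecting duct, close to the dim limit of 8.416, against 9.54, 10.26 and 10.31. A mean so near the limit does not show endothelial cells in the collecting duct sample. Tested markers read lower in the collecting duct for 7 of 11 of stroma, 8 of 8 of endothelium and 6 of 7 of cap mesenchyme. The same was seen for 9 of 9 of proximal tubule, 3 of 4 of podocytes and 6 of 6 of blood cells. The defining endothelial gene Pecam1 and the erythroid gene Hba-a1 were below the dim limit. Other members of their lists were not: the erythroid genes Slc4a1 and Alas2 and the endothelial genes Cdh5 and Esam lay above it in every array. Tie1, Ptprc, Nphs1 and Cited1 also had means below the limit. A dim single marker therefore does not show that a cell type was absent. The ratio of 3' to 5' signal for Gapdh, a sign of shortened RNA when large, stood at 12.0 for the collecting duct, against 10.3, 54.1 and 26.0 for anlage arrays 1, 2 and 3. The other control ratios spread less: 3.56, against 3.06, 6.41 and 5.42, for beta-actin, and 1.38, against 1.42, 3.28 and 1.55, for the transferrin receptor.

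Over all 12642 tested genes, limma with Benjamini-Hochberg adjustment called 0 genes higher in the collecting duct and 0 lower at an adjusted p of 0.05, a background of 0% in each direction, for the members included. Without adjustment, 149 genes (1.18%) were higher and 282 (2.23%) lower at a p under 0.05, and Btc and Egf were the 2 members among the higher ones. The same fit without an intensity trend also called 0 genes, with 449 at an unadjusted p under 0.05. With the trend but without anlage array 2, limma called 3 genes higher and 11 lower, 0 of them members, and the unadjusted total of 431 became 1401 without array 1 and 192 without array 3. The adjusted p of each tested member rounded to 1, so no member is reported as changed, and the values below describe these 4 arrays.

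Several ligands and 1 receptor nevertheless had their highest value in the collecting duct. Btc, Egf, Tgfa and Erbb3 lay above all 3 anlage arrays, which is 4 of 7 tested members (57.1%), where 17.3% of all tested genes did so. Hbegf was the 1 tested member below all 3 (14.3%), where 24.3% of all tested genes were. Egfr and Erbb2 lay within the anlage range. The median log2 difference of the 7 tested members, collecting duct minus anlage, was 0.84, and that of all tested genes was -0.06. This 0.84 is the value of the brightest Tgfa probe set. With probe sets averaged, Tgfa was again the middle member, at 0.23, against a median of -0.03 for all tested genes.

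**Figure D1:**
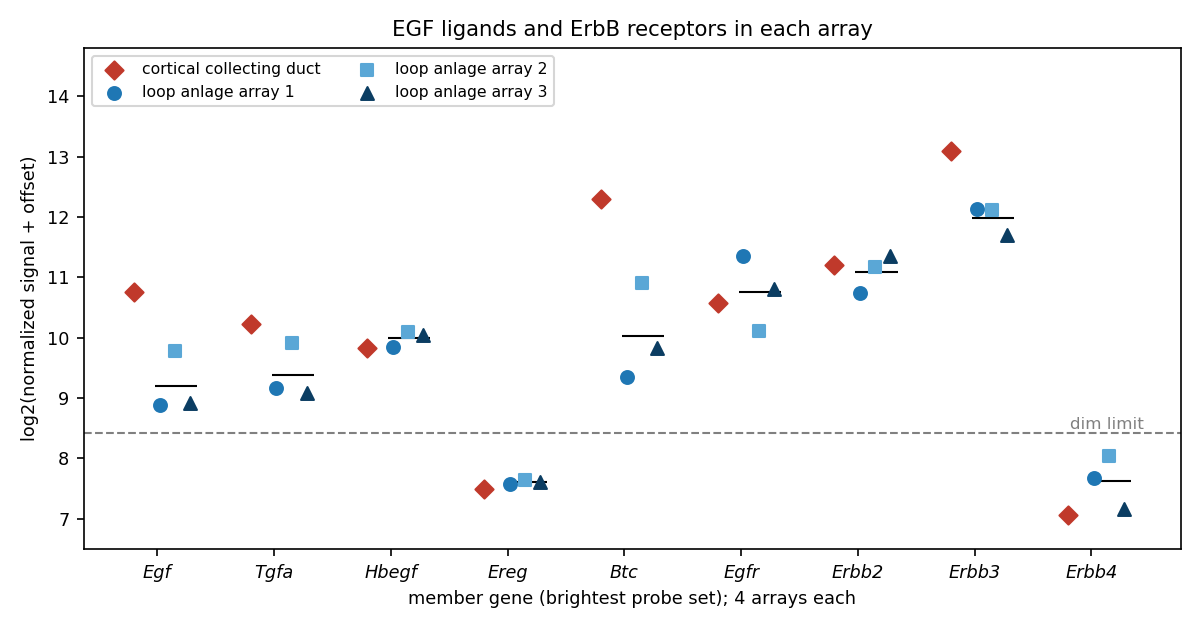
Log2 of normalized signal plus an offset (vertical axis) for the brightest probe set of each measured member (horizontal axis), with the collecting duct array as a red diamond, the 3 anlage arrays as blue symbols and their mean as a black bar. Btc, Egf, Tgfa and Erbb3 have the red symbol above all blue ones, Ereg and Erbb4 lie under the dim limit of 8.416 (dashed), and heights are not comparable between genes.

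Betacellulin, the ligand encoded by Btc, had the largest difference of the set. In deposited signal units its brighter probe set read 4947 for the collecting duct, against 745, 1596 and 741 in anlage arrays 1, 2 and 3. On the scale used for testing, log2 of the quantile-normalized signal plus 109.6, this was 12.31 in the collecting duct, against 9.36, 10.91 and 9.82 in the anlage arrays. The groups did not overlap, and the collecting duct value stood 1.39 above the nearest anlage array, array 2. Against the anlage mean of 10.03 ± 0.80 (SD, n = 3) the log2 difference was 2.27 ± 0.73 (SE), a 4.84-fold higher value with an adjusted p of 1 and an unadjusted p of 0.0207 from limma. A collecting duct value higher by at least as much was seen for 49 tested genes (0.388%). The second Btc probe set was dim and was not tested, at 9.07 against 7.91, 8.48 and 6.89, and it too lay above all 3 anlage arrays.

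Egf itself, the founding ligand of the family, followed with a single probe set. It gave 1701 deposited signal units for the collecting duct, against 518, 524 and 349 for the anlage arrays. After normalization the log2 values were 10.75 in the collecting duct, against 8.89, 9.78 and 8.92, so that the collecting duct value again lay above all 3. The difference from the anlage mean of 9.20 ± 0.51 (SD, n = 3) was 1.56 ± 0.60 (SE), 2.94-fold, with an adjusted p of 1 and an unadjusted p of 0.0405 from limma. In the same direction, 178 tested genes (1.41%) differed by at least as much. The loop markers, in contrast, all had their higher values in the anlage.

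Because Btc and Egf had the largest differences, the sequences around their annotated starts are shown, with that of their receptor Egfr, whose own values did not separate the structures. The windows run from 250 bases before the start to 50 after it, 5' to 3' on the gene's strand, and come from RefSeq on build GRCm38.p6. Capitals mark matches, on either strand, to a TATA box (TATAAA), a GC box (GGGCGG), an AP-2 motif (GCCNNNGGC) or a Grainyhead-like motif (AACCNGTT). The Btc window is chr5:91402945-91403244 on the minus strand, the Egf window chr3:129755273-129755572 on the minus strand, and the Egfr window chr11:16751953-16752252 on the plus strand.
Btc: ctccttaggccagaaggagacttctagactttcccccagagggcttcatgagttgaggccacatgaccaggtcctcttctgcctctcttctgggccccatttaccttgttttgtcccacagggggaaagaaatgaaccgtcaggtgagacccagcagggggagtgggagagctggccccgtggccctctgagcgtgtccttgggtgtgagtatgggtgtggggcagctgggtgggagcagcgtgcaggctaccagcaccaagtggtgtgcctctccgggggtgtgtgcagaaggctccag
Egf: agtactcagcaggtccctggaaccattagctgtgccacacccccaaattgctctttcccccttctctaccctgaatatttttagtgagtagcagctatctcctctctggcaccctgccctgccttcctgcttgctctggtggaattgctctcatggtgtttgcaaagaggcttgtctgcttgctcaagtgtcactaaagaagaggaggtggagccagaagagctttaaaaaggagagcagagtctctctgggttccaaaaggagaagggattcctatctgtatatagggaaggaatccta
Egfr: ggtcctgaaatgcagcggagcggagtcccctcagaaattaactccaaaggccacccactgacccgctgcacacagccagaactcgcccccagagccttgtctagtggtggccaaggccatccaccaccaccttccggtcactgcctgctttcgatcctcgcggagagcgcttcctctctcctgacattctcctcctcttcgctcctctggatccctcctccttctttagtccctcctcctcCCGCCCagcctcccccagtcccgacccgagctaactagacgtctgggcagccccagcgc
The Btc and Egf windows held no match to any of the 4 motifs. The Egfr window held 1 GC box, which begins 9 bases before the start. Among 32851 RefSeq windows of the same 300 bases, 13.6% held the TATA box, 35.7% the GC box, 16.6% the AP-2 motif and 2.09% the Grainyhead-like motif. The GC content was 60.3% for Btc, 49.0% for Egf and 62.3% for Egfr, against a median of 52.7% over all windows. For Egf the table listed 2 starts, of which the outermost is shown. Entries were found for 7 of the 10 genes. A missing match says only that these letters are not in the window.

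Tgfa, which encodes transforming growth factor alpha, gave a mixed picture over its 3 probe sets. The brightest read 10.23 in the collecting duct, against 9.17, 9.91 and 9.08 in the anlage arrays. It lay above all 3, with a log2 difference of 0.84 ± 0.58 (SE), but only 0.32 above array 2. The second probe set read 9.50, against 9.29, 9.27 and 9.26, a smaller step in the same direction. That order held only after normalization: in deposited units it read 681 in the collecting duct, against 711, 304 and 466. The remaining one, whose suffix _s_at marks probes that can match transcripts of more than 1 gene, went the other way at 8.71 in the collecting duct, against 8.92, 9.49 and 8.87. Averaged over its 3 probe sets, Tgfa differed by 0.23. In the same direction as the brightest probe set, 839 tested genes (6.64%) differed by at least as much.

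Hbegf, the heparin-binding member that also serves as the diphtheria toxin receptor in human cells, was close to equal in both structures. Its brighter probe set read 9.83 in the collecting duct, against 9.84, 10.10 and 10.05 in the anlage arrays. The collecting duct value was the lowest of the 4 by 0.01, far less than the anlage spread of 0.14 (SD, n = 3). The difference was -0.17 ± 0.51 (SE), with a 95% interval of -1.41 to 1.08 that still allows a change of more than 2-fold in either direction. The other probe set lay above all 3 anlage arrays after normalization, at 9.53 against 9.39, 9.00 and 8.42. In deposited units it read 698 in the collecting duct, against 763, 228 and 222, so anlage array 1 was higher there.

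Ereg, the gene for epiregulin, gave dim signal in every array. Its log2 values were 7.49 in the collecting duct and 7.58, 7.65 and 7.60 in the anlage arrays, all under the dim limit of 8.416, the 40th percentile of the mean log2 value over probe sets. The collecting duct value was the lowest by 0.10. At this signal a difference between the structures could not be read.

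Anlage array 2 stood nearest to the collecting duct for Btc, Egf and Tgfa, while for Hbegf array 1 was nearest and array 2 furthest. In all 4 tested ligands it held the highest of the 3 anlage values, as it did for 45.7% of all tested genes. It was also the anlage array with the highest mean of the collecting duct markers (10.92) and the lowest mean of the loop markers (11.22), and the one with the highest Gapdh ratio (54.1). The part of these in the ligand values was not tested. Without array 2 the log2 difference became 2.52 for Btc, 1.73 for Egf and 1.03 for Tgfa, and none of them passed (adjusted p = 0.388 for Btc and 0.975 for Egf, limma).

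**Figure D2:**
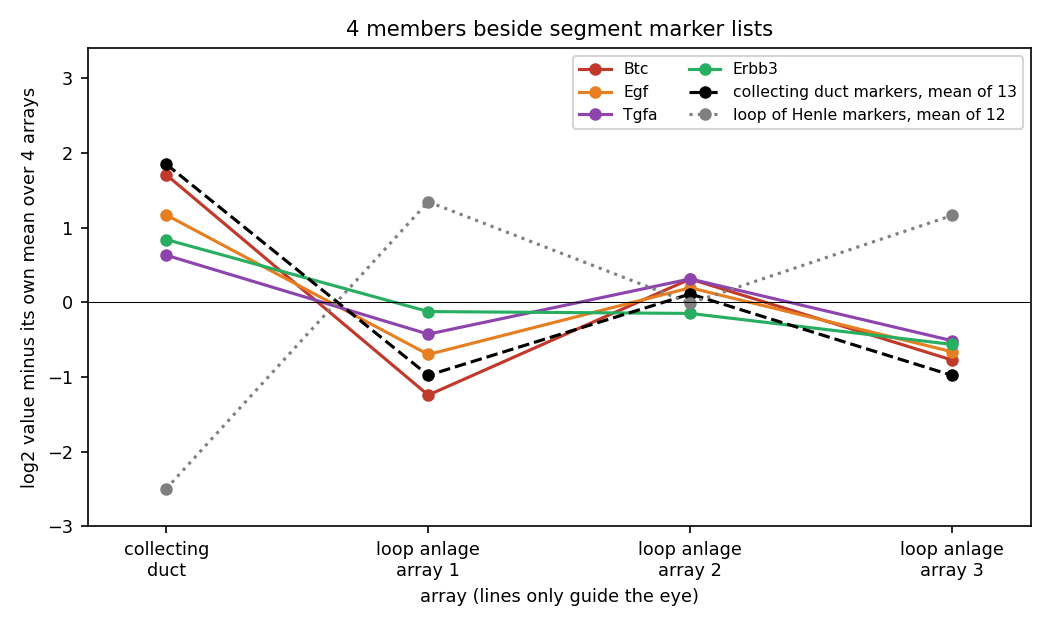
Log2 value minus its own mean over the 4 arrays (vertical axis) for Btc, Egf, Tgfa and Erbb3 and for the mean of the collecting duct and loop of Henle marker lists, by array (horizontal axis). Btc, Egf and Tgfa have their second highest point in anlage array 2, as does the collecting duct list (10.92 there, against 9.83 in anlage arrays 1 and 3).

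By the smallest distance between mean-centred log2 values over the 4 arrays, the tested genes most like Btc were Hsd11b2 (distance 0.0995), Inmt (0.275) and Hoxd3 (0.303). Hsd11b2 encodes an enzyme that inactivates glucocorticoids and is itself in the collecting duct marker list. It read 13.17 in the collecting duct, against 10.34, 11.76 and 10.73 in the anlage arrays. With 4 arrays and 12642 genes such close matches describe these arrays only.

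Among the receptors, Erbb3 had the largest difference. Its brighter probe set gave 8384 deposited signal units for the collecting duct, against 4210, 4523 and 3141 for the anlage. The log2 values were 13.10 in the collecting duct, against 12.14, 12.11 and 11.70. The collecting duct value lay 0.96 above the nearest anlage array, and the 3 anlage arrays were close together, with a mean of 11.98 ± 0.25 (SD, n = 3). The difference was 1.12 ± 0.50 (SE), 2.17-fold, with an adjusted p of 1 and an unadjusted p of 0.0676 from limma, and 447 tested genes (3.54%) were higher in the collecting duct by at least as much. The other Erbb3 probe set was dim and not tested, at 7.63 against 8.16, 7.09 and 8.05, and averaging both reduced the difference to 0.49.

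Egfr, the receptor shared by all 5 measured ligands, had 7 probe sets that did not agree. The brightest read 10.58 in the collecting duct, against 11.35, 10.12 and 10.80 in the anlage arrays, a difference of -0.17 ± 0.65 (SE) with a 95% interval of -1.77 to 1.42. Another probe set read 10.79, against 9.17, 9.94 and 10.79, and a further one 10.42, against 8.71, 9.72 and 9.99. For these the differences were 0.82 ± 0.78 and 0.95 ± 0.72 (SE, fit over probe sets), and the second of them lay above all 3 anlage arrays. The fourth read 9.10, against 10.08, 8.95 and 8.91. The remaining 3 were dim, with differences of -0.03, -0.20 and -0.82.

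The anlage arrays themselves disagreed on Egfr. Array 1 was the highest of the 3 anlage arrays for the brightest and the fourth probe set, and the lowest for the other two tested ones. Array 1 had the lowest Gapdh ratio of the 3 anlage arrays (10.3), and the part of RNA shortening in this pattern was not tested. Without array 1 another probe set, the one with 10.79 in the collecting duct, became the brightest, and the difference of Egfr turned to 0.46 (adjusted p = 0.834, limma). The genes nearest to the brightest Egfr probe set over the 4 arrays were Pik3r1 (distance 0.051), Dag1 (0.065) and Pnpla2 (0.0737). Pik3r1, a regulatory subunit of the lipid kinase PI3K, read 11.25 in the collecting duct, against 12.04, 10.84 and 11.53. No direction for Egfr can be given from these probe sets.

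**Figure D3:**
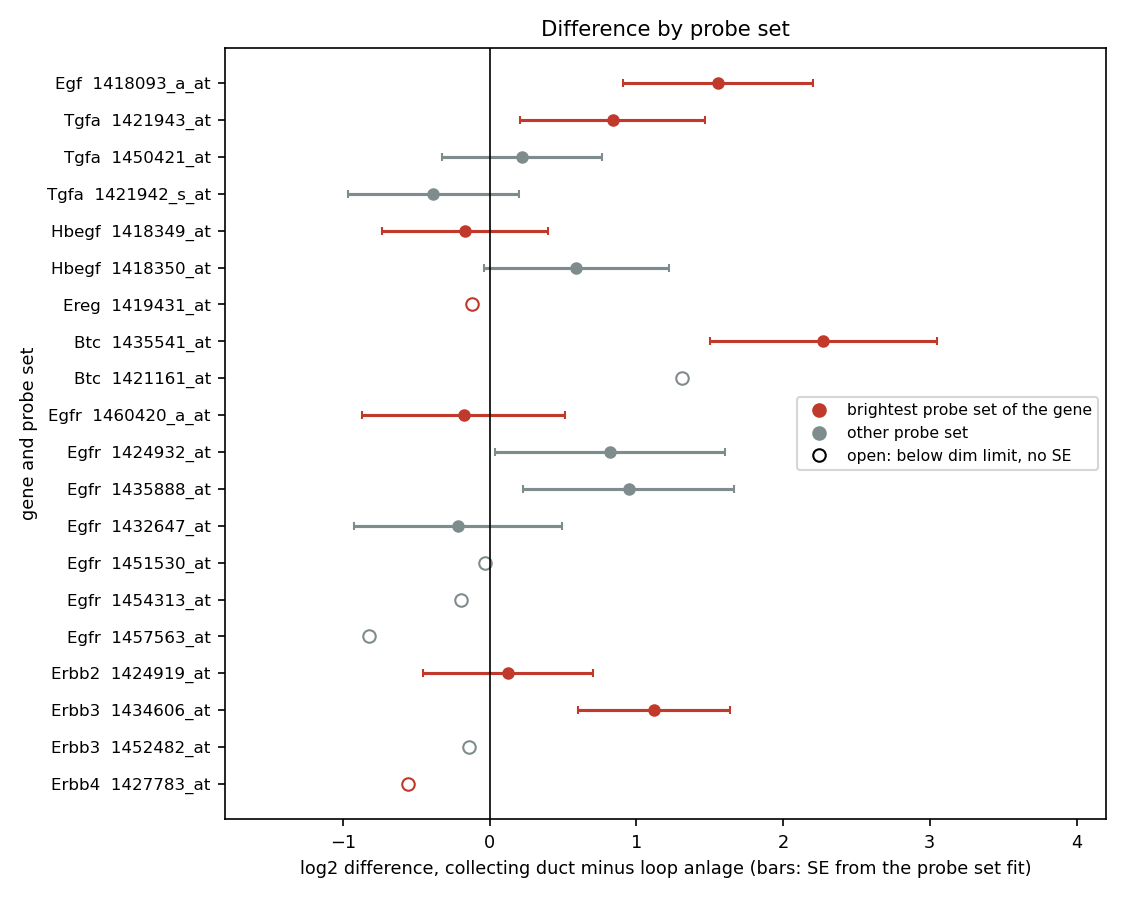
Log2 difference, collecting duct minus loop anlage (horizontal axis), for each of the 20 member probe sets (vertical axis), with SE bars from the fit over 22499 probe sets and open circles for the 7 dim probe sets that were not tested. Both Btc probe sets lie right of 0, while those of Tgfa, Hbegf, Egfr and Erbb3 fall on both sides.

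Erbb2, the partner receptor without a ligand, was nearly equal in both structures. Its single probe set read 11.21 in the collecting duct, against 10.74, 11.17 and 11.35 in the anlage arrays, inside their range. The difference was 0.12 ± 0.54 (SE), with a 95% interval of -1.21 to 1.46. Without anlage array 1 it was -0.05, and with arrays scaled to a common median it was -0.09.

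Erbb4, the other receptor for betacellulin and the heparin-binding ligand, was dim throughout. Its only probe set read 7.07 in the collecting duct, against 7.68, 8.03 and 7.15 in the anlage arrays. In deposited units these were 23.5, against 140, 80.9 and 33.8. The collecting duct value was the lowest by 0.09, but all 4 lay under the dim limit and no test was made.

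Other genes of the pathway were read from 6 lists with 73 members, of which 65 had a probe set with 1 symbol and 62 were tested. Of these 62, 31 read higher and 31 lower in the collecting duct, 0 passed over all genes and 0 had an unadjusted p under 0.05. The collecting duct lay above all 3 anlage arrays for 14 and below all 3 for 17, against backgrounds of 17.3% and 24.3%. No list had a member that passed the test.

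Of the other ErbB ligands, Epgn (epigen, an EGFR ligand) read 7.88 in the collecting duct, against 8.79, 8.51 and 8.78 in the anlage arrays, a difference of -0.82 ± 0.49 (SE). Its collecting duct value lay under the dim limit of 8.416, and it was tested only because its anlage values lay above that limit. The neuregulins Nrg4 and Nrg2 differed by 0.32 ± 0.59 and 0.24 ± 0.51, while Nrg1 and Nrg3 were dim. Neuregulins are ligands of ERBB3 and ERBB4.

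Of 9 genes for the release of ligands, 7 read lower in the collecting duct, with a median difference of -0.65, against -0.06 over all tested genes. The lower ones include Adam17, at only -0.0004. The list mixes proteases with an inhibitor, so the count gives no direction for ligand release. Timp3, an inhibitor of metalloproteases, read 10.63 in the collecting duct, against 12.00, 11.69 and 12.90, a difference of -1.57 ± 0.64 (SE). The metalloprotease gene Adam9 read 11.54, against 12.24, 12.58 and 12.72, below all 3 anlage arrays. Rhbdl2, a rhomboid protease gene, differed by -0.83 ± 0.54 and Rhbdf1, which encodes an inactive rhomboid protein, by 0.80 ± 0.50. Adam17, the main sheddase of several EGFR ligands, read 12.07 in the collecting duct, against an anlage mean of 12.07 ± 0.51 (SD, n = 3). For Timp3 anlage array 3 was the highest, as it was for the stromal marker list (14.47), and the part of stromal RNA was not tested.

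Adaptor and effector genes were split, 9 of 17 higher and 8 lower, with a median of 0.16. The docking protein gene Gab2 read 11.11 in the collecting duct, against 11.22, 12.70 and 12.43 (-1.01 ± 0.72, SE). Grb7, an adaptor gene that lies near Erbb2 in the genome and whose product binds ErbB receptors, read 11.14, against 10.35, 10.43 and 9.86, above all 3 (0.92 ± 0.54). The Ras exchange factor gene Sos1 differed by 0.87 ± 0.52 and the transcription factor gene Stat3 by -0.83 ± 0.57.

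The Ras-MAPK list named 12 genes, of which only 6 had a probe set with 1 symbol, so the counts leave out much of the cascade. Of the 6 tested genes, 5 had a higher value, with a median of 0.22. Nras, a Ras GTPase gene, read 13.53 in the collecting duct, against 12.48, 12.45 and 12.40, so that the anlage arrays lay within a narrow band (SD 0.04, n = 3) and the collecting duct 1.08 ± 0.46 (SE) above their mean. The kinase genes Rps6ka3, Araf and Map2k2 differed by -0.51 ± 0.41, 0.50 ± 0.51 and 0.25 ± 0.76. The list for PI3K, Akt and mTOR named 12 genes, of which 10 were tested, 3 higher and 7 lower, with a median of -0.20. Gsk3b, a kinase inhibited by Akt, differed by -1.07 ± 0.74, Akt1 by 0.47 ± 0.67, Pdpk1 by -0.39 ± 0.52 and Mtor by -0.27 ± 0.52.

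Among genes that restrain or degrade the receptors, 10 of 17 had a higher value and 7 a lower one, with a median of 0.35. Errfi1, which encodes an inhibitor that binds the EGFR kinase, had the largest difference, at 13.33 in the collecting duct, against 10.92, 13.07 and 12.09. The collecting duct value was the highest of the 4, but the anlage arrays spread by 1.08 (SD, n = 3) and the difference was 1.30 ± 0.86 (SE). As for Btc, Egf and Tgfa, anlage array 2 was nearest to the collecting duct. The deubiquitinase gene Usp8 differed by 0.78 ± 0.72, the ubiquitin ligase gene Cblc by -0.76 ± 0.50 and the phosphatase gene Ptpn1 by 0.70 ± 0.74.

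**Figure D4:**
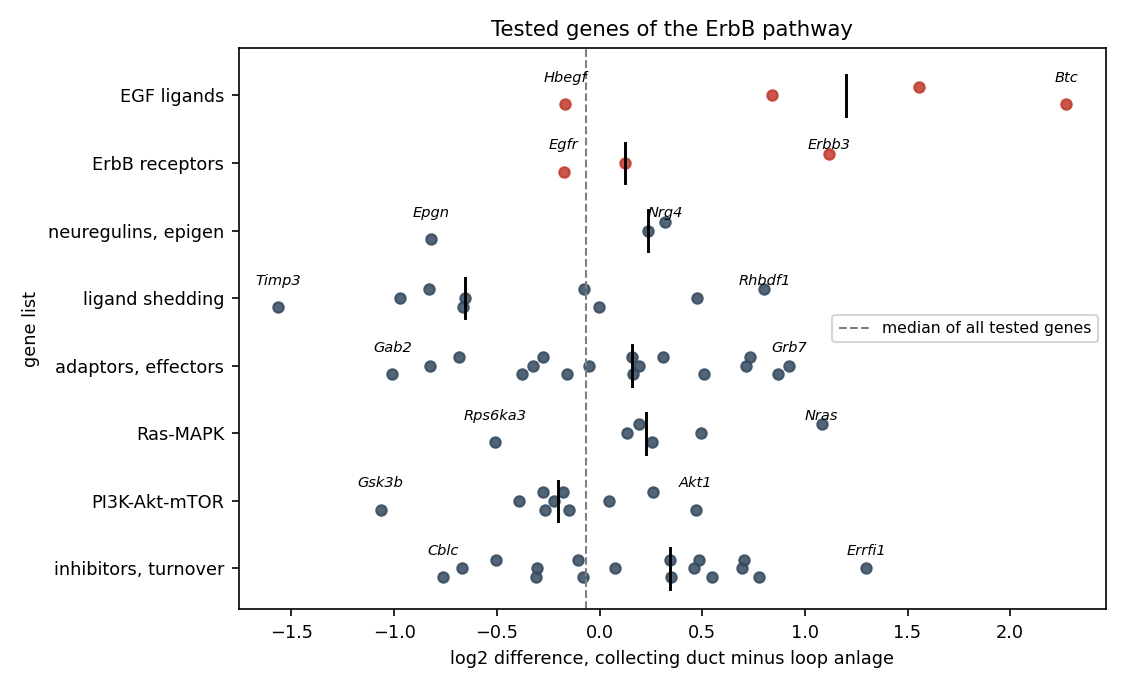
Log2 difference, collecting duct minus loop anlage (horizontal axis), of each tested gene in the member lists (red) and the 6 pathway lists (dark), 1 point per gene, with the list median as a black bar and the median of all tested genes (-0.06) as a dashed line. Btc and Egf lie furthest right, Timp3 furthest left, and the lowest and highest gene of each list is named.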

How the data were processed

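RNA of laser-captured structures was hybridised to 4 arrays. The deposited intensity values were probe set signals on a linear scale, made with GCOS per the submitters' processing notes, with version and algorithm not given in the sources used here. Their mean after trimming 2% at each end was 1500 on every array, and medians ran from 206.9 to 526.5. Detection calls were not used here.

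Arrays were quantile normalized, and log2(signal + 109.6) was taken, the offset being the 25th percentile. It shrinks differences of dim genes. After 64 control probe sets were left out, symbols came from the platform table (34945 probe sets with 1 symbol, 932 with several, 9160 with none, not used). Entrez numbers matched 34741 to RefSeq (GRCm38), and 0 symbols changed. The brightest probe set stood for a gene, and means under 8.416 were not tested. limma 3.58.1 (R 4.3.3) compared 1 collecting duct array with 3 anlage arrays, with an intensity trend, two-sided. The fit had 2 residual and 4.04 prior degrees of freedom, and assumes that the lone array varies like the anlage. Exact permutation cannot go below p = 0.25 here. The fit was run on simulated data only to check that planted differences were recovered on average. Those data gave all arrays the same spread per gene, so they cannot test the assumption on the lone array. All members and, per pathway list, the 4 tested genes with the largest differences were named. Likeness was the Euclidean distance of centred log2 values. Members were chosen by name and not by measured values. The pathway and marker lists were chosen with earlier results of these data known. Adam17, Ereg, Erbb4, dim list genes and markers were named for their role. Figures used Python 3.11.15. Alternatives covered normalization, offset, filter, probe set choice, trend and leaving out each anlage array. At most 3 values were identical between any 2 arrays.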

Additional observations from a re-analysis of the deposited data

How the results depend on the processing

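Under 11 settings and the separate probe sets, 110 member differences were computed. Of those tested, 0 passed an adjusted p of 0.05, while values under the dim limit had no test. The opposite sign was seen in 12 of the 110. Btc (1.79 to 2.52), Egf (1.37 to 1.73), Tgfa (0.23 to 1.03) and Erbb3 (0.49 to 1.24) kept their sign under all 11 settings, although single probe sets turned for Tgfa (-0.38) and Erbb3 (-0.14). Hbegf turned to 0.0173 on the deposited scale, 0.21 averaged over probe sets and 0.59 in its other probe set. Egfr turned to 0.0414 on the deposited scale, 0.0466 averaged over probe sets, 0.46 without anlage array 1 (-0.46 without array 2), and 0.82 and 0.95 in 2 other probe sets. Erbb2 turned to -0.0918 with a common median and ranged from -0.0508 without anlage array 1 to 0.25 without array 3. A common median moved the median of all genes by -0.18, and leaving out array 1 by -0.13. The cause of these sign changes was not tested. Calls over all genes ranged, with each anlage array left out, from 0 to 3 higher and from 0 to 11 lower, the calls coming without array 2 and with 1 residual degree of freedom. Genes at an unadjusted p under 0.05 numbered 431, but 1401 without array 1 and 192 without array 3. Tested members above all anlage arrays numbered 4, with 3 under a common median and 4 to 5 with an array left out. Those below numbered 1 (Hbegf), 1 to 2 with an array left out, 0 with a common median, on the deposited scale and with the mean of probe sets, and 3 with no filter, which adds Ereg and Erbb4. No paired analysis was possible because the structures share only 1 replicate number. The collecting duct, with 1 array, has no spread of its own, and the number of arrays limits the precision.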

Other observations

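Epgn, Ereg, Areg and Btc follow each other as protein-coding neighbours on chromosome 5 in the RefSeq gene table (GRCm38). Of these, Areg was not analysed here. Btc stood 2.27 higher in the collecting duct on the log2 scale, and Ereg was dim in every array. Epgn differed by -0.82, below all 3 anlage arrays, but its collecting duct value (7.88) lay under the dim limit. None of these differences passed over all genes (limma, adjusted p of 1 for Btc and Epgn).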
